A study of Mus musculus with 7899 samples.

Results

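Stat3, Stat5a, Stat5b and Stat6 encode latent transcription factors of the STAT family, and their transcripts were followed in mouse pancreatic β cells before, during and after pregnancy. The members were the genes with exactly these symbols, which gave 4 of the 21767 genes in the longest count table, and each of the 7 tables held all 4. STAT proteins wait in the cytoplasm until a cytokine or hormone receptor brings Janus kinases together. The kinases phosphorylate the STAT, which then forms dimers and enters the nucleus to act on its target genes. In the β cell, STAT5 is the route by which prolactin and placental lactogen act through the prolactin receptor, STAT3 is the main route of the gp130 cytokines and leptin, and STAT6 answers interleukin-4 and interleukin-13. The activity of these proteins depends on phosphorylation, which transcript counts do not measure.

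Every library was made from β cells of female C57BL/6J mice: islets were picked by hand, single cells were sorted by flow cytometry and each cell was sequenced with Smart-seq3xpress, a full-length single-cell method. The labels do not name the sort markers. The 7897 cells fell into 48 groups. All cells of a group with the same replicate number were summed into 1 library, which gave 100 libraries with 2 or 3 replicates a group. Nothing says that replicate numbers stand for separate animals, so p-values measure the spread between these libraries. The time course covered 9 stages between G3.5 and G18.5 (days of gestation), then days 2, 7 and 14 after delivery in an L group (P2L, P7L, P14L) and an NL group (P2NL, P7NL, P14NL), with G0, mice that were not pregnant, as the baseline. The letters L and NL, which the labels leave unexplained, are taken to mean mice with and without lactation. Knockouts of Stat3 or Acss2 were each set against wild types at G0, G14.5 and G18.5, and a knockout of p300 (the acetyltransferase gene Ep300) against wild types at G0 and G14.5. A high-fat diet set held unmodified mice at G0, G14.5 and P7NL, Acss2 knockouts and wild types at G0 and G14.5, and wild types on standard diet at G14.5. The labels give neither the kind of allele nor the promoter of any Cre nor the exons deleted. In culture, islets were kept for 4 days in 20% human serum, either maternal or normal, with 5 µM A485 or 20 µM nifuroxazide or with the vehicle of each. A485 inhibits the acetyltransferases p300 and CBP, and nifuroxazide is used as an inhibitor of STAT3.

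The libraries held between 13273435 and 181405413 reads. Of 10 β-cell markers, 9 stood at 10 CPM (read counts scaled to the size of the library) or more in 88 libraries and 8 in the 12 libraries of the Stat3 set, and the 10 together made up between 385401 and 729615 CPM over all libraries. In 39 cells, genes of other islet hormones took more than 5% of the reads. These cells were kept, and the results below were also computed without them. The table of the Stat3 knockout set holds 12792 genes and that of the p300 set 21177, so levels there are scaled over fewer genes than in the other tables. Tables were scaled separately, and tests were made within a table. The knockout labels were checked on their target genes. Acss2 stood at 9.76 to 21.7 CPM in Acss2 knockout libraries on standard diet, against 17.996 to 38.5 CPM in wild types. These ranges overlap over all stages, but within each stage the knockouts lay below the wild types. On high-fat diet Acss2 stood at 11.5 to 18.8 CPM in knockouts, against 21.2 to 48.1 CPM in wild types. Ep300 stood at 11.9 to 20.4 CPM in p300 knockouts, against 24.2 to 37.2 CPM in wild types.

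Of the 4 genes, 3 are neighbours. In GRCm38 with the GENCODE M21 annotation, Stat5b (ENSMUSG00000020919) lies at chr11:100780731-100850724 on the minus strand, Stat5a (ENSMUSG00000004043) at chr11:100859351-100885169 on the plus strand and Stat3 (ENSMUSG00000004040) at chr11:100885098-100939540 on the minus strand. Stat5b and Stat5a start away from each other with 8626 bases between them. Stat5a and Stat3 run towards each other, and the last 72 bases of both, exonic and in the 3′ UTR, overlap at chr11:100885098-100885169. Stat6 (ENSMUSG00000002147) lies apart, at chr10:127642986-127660957 on the plus strand, and its 3′ end overlaps that of Nab2 by 40 bases. No source used here gives the strand setting of the authors' counting, so reads in these overlaps cannot be told apart if strand was not used.

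Stat5a and Stat5b arose as a duplicate pair and share coding sequence, which bears on how reads are divided between them. Of all 50-base windows in their annotated transcripts, 608 were identical, which is 14.7% of those of Stat5a and 11.1% of those of Stat5b. No other pair of the 4 genes shared a 50-base window. The longest identical run spans 324 bases of coding sequence, in Stat5a at chr11:100874023-100874983 on the plus strand and in Stat5b at chr11:100797741-100798701 on the minus strand. Its first 60 bases are shown because a read inside them fits both genes equally well, so Stat5a and Stat5b counts are uncertain to that extent.
Start of the run shared by Stat5a and Stat5b: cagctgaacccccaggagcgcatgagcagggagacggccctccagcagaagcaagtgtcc

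One promoter window of each gene of the pair is also alike over a short stretch. In the RefSeq promoter windows (250 bases before to 50 bases after a start, build GRCm38.p6), each of the genes has 2 windows. In the pair of windows most alike, a stretch of 50 bases just upstream of the start was identical at 45 positions, or 90%. It lies at chr11:100860418-100860467 on the plus strand in Stat5a, from base -66 to base -17 relative to the start, and at chr11:100822578-100822627 on the minus strand in Stat5b, from base -57 to base -8. This Stat5b window belongs to a start inside the annotated gene, and the one at the gene's annotated 5′ end (chr11:100850532-100850831) is not the one shown. The stretches are shown for their likeness alone, and capitals mark the identical bases. The use of either start in these cells was not tested.
Stat5a promoter: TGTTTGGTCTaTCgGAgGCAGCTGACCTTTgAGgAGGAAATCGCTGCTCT
Stat5b promoter: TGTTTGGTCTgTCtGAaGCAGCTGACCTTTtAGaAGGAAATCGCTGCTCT
The STAT motif TTCNNNGAA, searched on both strands, was in 8.3% of 32851 promoter windows, and TTCNNNNGAA, the form with the wider spacing that STAT6 prefers, in 6.95%. Neither was in any of the 6 windows of the 4 genes.

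By the deposited gene lengths, Stat3 was the most abundant of the 4 transcripts in every library. In RPKM, which divides the scaled counts by gene length, Stat3 was first in 100 of 100 libraries. Stat5b was second in 85 libraries and Stat5a lowest in 91. The order Stat3, Stat5b, Stat6, Stat5a held in 78 libraries, and 13 had the order Stat3, Stat6, Stat5b, Stat5a. Most of these 13 were from cultured islets. The median RPKM of Stat5b was 4.51 in the A485 set, below that of Stat6, and 5.81 in the nifuroxazide set, close to that of Stat6. In the time course the median RPKM was 11.02 for Stat3, 5.25 for Stat5b, 3.59 for Stat6 and 2.28 for Stat5a. The excess of Stat3 over Stat5b varied from 1.51-fold to 4.71-fold between time-course libraries, and was as low as 1.15-fold in the Stat3 set. The deposited lengths were 6042 bases for Stat3 and 5213 for Stat5b, against 9527 and 5539 bases of annotated exons. The order of levels depends on the lengths used. Levels in cultured islets were higher for Stat3 and Stat6: the median RPKM of Stat3 was 19.8 in the A485 set and 21.9 in the nifuroxazide set, and that of Stat6 was 6.15 in the A485 set and 5.80 in the nifuroxazide set. These tables were scaled separately, and cultured and fresh islets were not tested against each other.

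**Figure D1:**
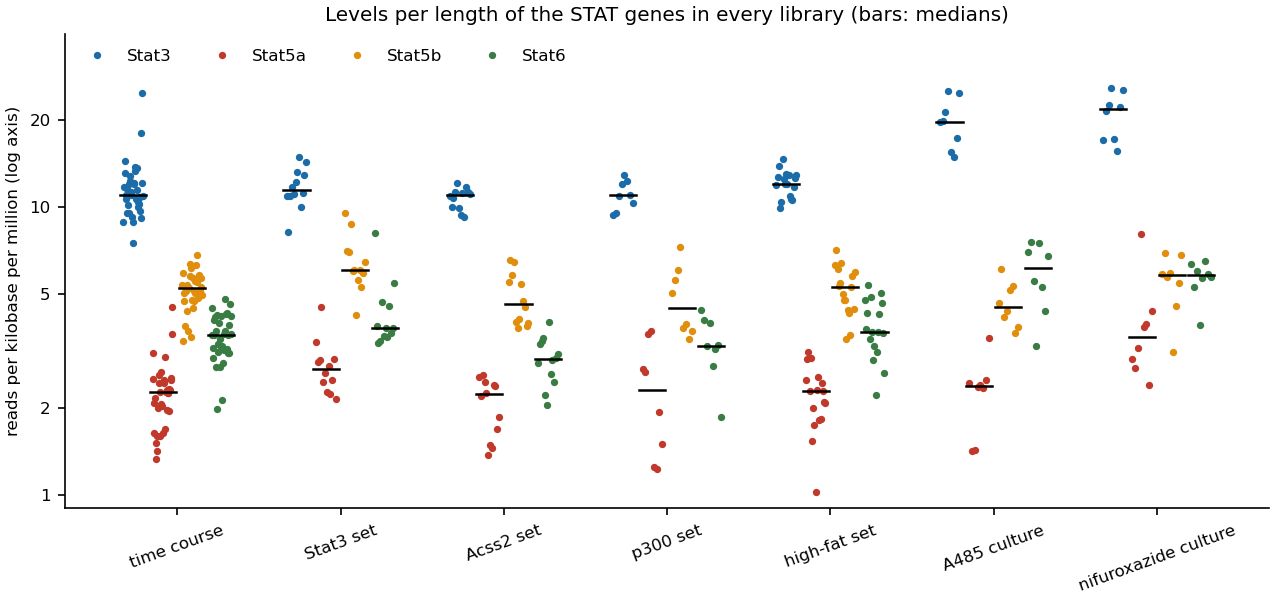
Level of Stat3, Stat5b, Stat6 and Stat5a in RPKM on a log axis, 1 point a library, by count table. Stat3 is the highest of the 4 in all 100 libraries and Stat5a the lowest in 91.

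Detection per cell followed the same order. With each cell thinned to 200000 reads, a Stat3 read was found in a median of 97.6% of cells per time-course library, with a range of 86.8% to 100%. A Stat5b read was found in 80.2%, a Stat6 read in 46.1% and a Stat5a read in 44.8% of cells by the same median. These shares count cells with a read, and a cell without one may still express the gene.

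Across the 16 groups of the time course, Stat3 and Stat5a varied beyond the spread of their replicates. In edgeR's quasi-likelihood F test over all groups with Benjamini-Hochberg adjustment over 15373 genes, the adjusted p was 3.01e-05 for Stat3 and 0.0195 for Stat5a, and 2676 genes, or 17.4%, passed at 0.05. Stat5b (adjusted p = 0.0817) and Stat6 (adjusted p = 0.722) did not pass, but Stat5b passed with DESeq2 (adjusted p = 0.0133) and without G10.5 replicate 2 (adjusted p = 0.0366, edgeR). The Stat5a call was lost without P7NL replicate 2, and with cells weighted equally in limma its adjusted p was 0.0655. The highest group mean was 2.63 times the lowest for Stat3, 2.80 times for Stat5a, 1.55 times for Stat5b and 1.56 times for Stat6.

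The order of the groups differed between the genes. Stat3 was highest at P7L, whose libraries lay above all others, and next at G10.5 and G8.5, which overlapped each other and lay above the following group. Its lowest group was G5.5, with 53.6 and 45.3 CPM. Stat5a was highest at P7NL, which did not overlap the next group, G0, and lowest at G14.5, which overlapped G12.5. Stat5b ranged from 33.1 and 32.05 CPM at G3.5 down to 22.7 and 19.4 CPM at G16.5. Stat6 ranged from 14.7 and 17.4 CPM at P7L to 8.10 and 12.4 CPM at G6.5, and no neighbours in its order were apart. Of the 15 pairs of neighbouring groups, 4 did not overlap for Stat3, 1 for Stat5a, 1 for Stat5b and 0 for Stat6. The groups were put in order by these same values, and no share over all genes was computed. These counts are therefore a description only. The group means of the 4 genes were little related to each other: Pearson's r over the 16 groups lay between -0.02 and 0.33 for the 6 pairs, a description over groups that share their libraries.

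**Figure D2:**
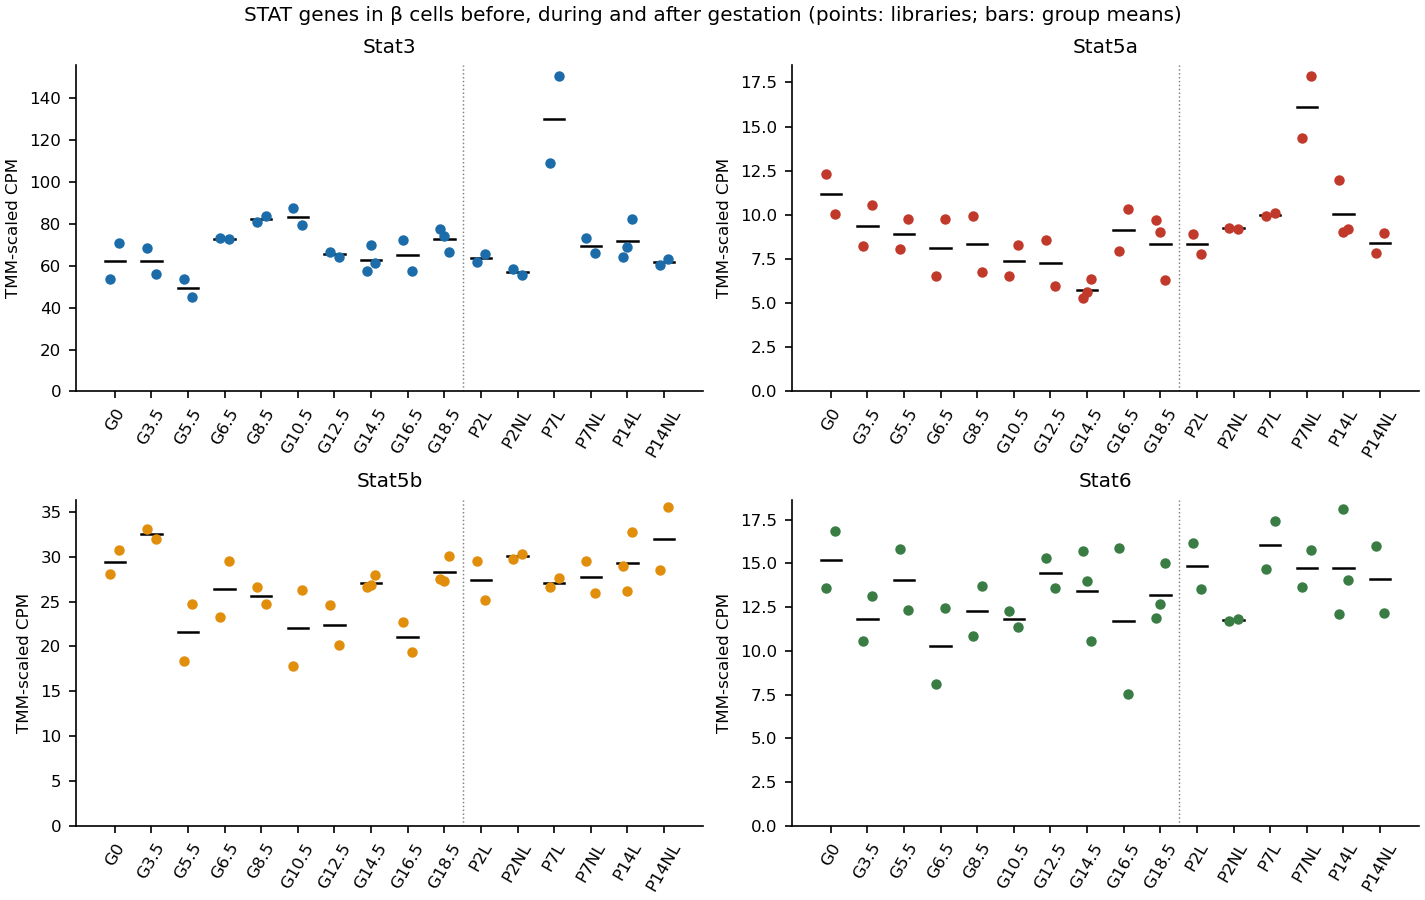
CPM of each gene in every library of the time course, from G0 through gestation to the days after delivery, with lines at the group means. Stat3 stands out at P7L, with 109.3 and 150.6 CPM, and Stat5a is lowest at G14.5, with 5.29 to 6.34 CPM.

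On day 7 after delivery Stat3 was called higher in the L group. Stat3 had 109.3 and 150.6 CPM in P7L libraries, against 73.2 and 66.1 CPM in P7NL libraries and 53.5 and 70.7 CPM in G0 libraries. Both P7L libraries lay above every other library of the time course. Stat3 rose by 0.90 ± 0.16 (log2 fold change ± SE) in P7L against P7NL, with an adjusted p of 0.00152 by edgeR's quasi-likelihood test with Benjamini-Hochberg adjustment, and 0.839% of genes were called in this comparison, 0.696% with a rise. The group means were 129.95 ± 29.2 CPM in P7L and 69.6 ± 5.03 CPM in P7NL (SD, n = 2 each). Against G0 (62.1 ± 12.1 CPM, SD, n = 2), P7L was higher by 1.07 ± 0.16 on the log2 scale, with an adjusted p of 7.69e-05 by the same test, where 3.35% of genes were called.

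The 2 P7L libraries differed from each other, and the call against P7NL rested on single libraries. Without P7L replicate 2, the higher of the pair, the log2 fold change against P7NL was 0.65 with an adjusted p of 0.163, and without P7NL replicate 2 it was 0.83 with an adjusted p of 0.0625. The call against G0 held with each of the 4 libraries left out, at log2 fold changes of 0.82 to 1.28 and adjusted p of 3.08e-05 to 0.0135 by edgeR's test.

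The higher level was also seen in the median cell and in the cells poorest in Stat3. The median Stat3 CPM per cell was 108.2 and 133.9 in P7L, against 74.2 and 49.6 in P7NL and 42.3 and 63.8 in G0. The 10th percentile was 35.7 and 68.1 CPM in P7L, against 24.04 and 14.6 CPM in P7NL. The 10% of cells richest in Stat3 held 22.8% and 20.9% of its reads in P7L, against 22.4% and 28.8% in P7NL.

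Some markers of other cells moved with these groups. The 9 immune markers summed to 150.8 and 156.2 CPM in P7L, against 67.5 and 66.2 CPM in P7NL and 31.6 and 60.2 CPM in G0, and nearly all of it was C1qa, while Ptprc, Lyz2 and C1qb were at 0. The 9 α-cell markers summed to 1679 and 1730.4 CPM in P7L, against 3067 and 2300.1 CPM in P7NL. The part of these markers in the Stat3 difference was not tested. Without the cells rich in other hormones, the log2 fold change of Stat3 was 0.90 against P7NL and 1.06 against G0.

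**Figure D3:**
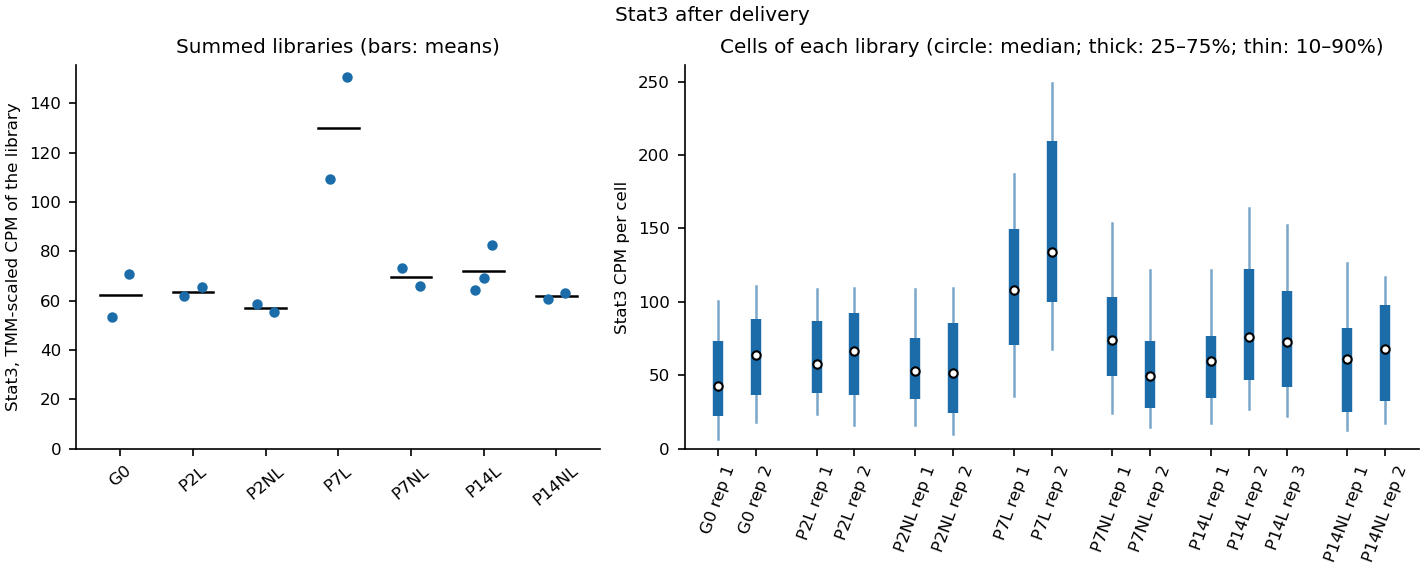
Stat3 CPM per library at G0 and in the L and NL groups on days 2, 7 and 14 after delivery, with group means. The P7L libraries, at 109.3 and 150.6 CPM, lie above all others shown.

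On the other days the L and NL groups lay close together for Stat3. On day 2 Stat3 had 61.8 and 65.5 CPM in P2L libraries, against 58.5 and 55.5 CPM in P2NL libraries, a log2 difference of 0.16 ± 0.16 (adjusted p = 1), where 0.124% of genes were called. On day 14 it had 64.2, 69.2 and 82.5 CPM in P14L libraries, against 60.5 and 63.2 CPM in P14NL libraries, a difference of 0.22 ± 0.15 (adjusted p = 0.679, edgeR), where 0.722% of genes were called. The groups did not overlap on either day, as for 17.4% of genes in this direction on day 2 and 11.5% on day 14, and the differences did not pass the test. The lactation difference of Stat3 was larger on day 7 than on day 2 by 0.74 ± 0.22 (p = 0.00243, adjusted p = 1 in edgeR's test) and than on day 14 by 0.68 ± 0.21 (p = 0.00335, adjusted p = 0.939 in edgeR's test). Neither passed the adjustment over all genes, and 0% of genes did in either contrast by edgeR.

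Stat5a lay the other way round on day 7. It had 9.91 and 10.1 CPM in P7L libraries, against 14.3 and 17.8 CPM in P7NL libraries. These groups did not overlap, but the log2 fold change of -0.68 ± 0.27 did not pass (adjusted p = 0.465, edgeR), and 18.8% of genes lay without overlap in this direction. Stat5b, with a log2 difference of -0.03, and Stat6, with 0.13, had overlapping groups on day 7.

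Around delivery itself none of the 4 genes was called. Stat3 had 58.5 and 55.5 CPM in P2NL libraries, against 77.5, 74.2 and 66.4 CPM in G18.5 libraries, a log2 fold change of -0.35 ± 0.15 (adjusted p = 0.383, edgeR), where 1.3% of genes were called. In P2L against G18.5 it was -0.19 ± 0.15 (adjusted p = 0.953), where 0.026% of genes were called.

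During gestation, Stat5a at G14.5 was the one member called against G0 in the time course. Stat5a encodes the STAT first described in the mammary gland as a prolactin-induced factor. It had 5.29, 5.63 and 6.34 CPM in G14.5 libraries, against 12.3 and 10.0 CPM in G0 libraries, and the groups did not overlap, as for 15.5% of genes in this direction. Stat5a fell by 0.96 ± 0.24 on the log2 scale (adjusted p = 0.00941, edgeR's quasi-likelihood test), with means of 5.75 ± 0.54 CPM at G14.5 (SD, n = 3) and 11.2 ± 1.6 CPM at G0 (SD, n = 2). Of all genes, 10.1% were called at G14.5, 4.15% with a fall. Without G0 replicate 1 the fold change was -0.80 and the adjusted p 0.122.

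All stages shared the 2 G0 libraries, so their differences from G0 are not independent of each other and are given side by side. Of all genes, 0.579% were called at G3.5, 1.57% at G5.5, 1.65% at G6.5, 5.79% at G8.5, 2.76% at G10.5, 5.03% at G12.5, 10.1% at G14.5, 7.25% at G16.5 and 4.77% at G18.5. The log2 fold change of Stat5a against G0 was -0.25 at G3.5, -0.33 at G5.5, -0.46 at G6.5, -0.42 at G8.5, -0.60 at G10.5, -0.62 at G12.5, -0.96 at G14.5, -0.29 at G16.5 and -0.42 at G18.5. That of Stat5b was 0.15 at G3.5, -0.44 at G5.5, -0.15 at G6.5, -0.19 at G8.5, -0.41 at G10.5, -0.39 at G12.5, -0.11 at G14.5, -0.48 at G16.5 and -0.05 at G18.5. For Stat3 it was near 0 at G3.5, -0.33 at G5.5, 0.24 at G6.5, 0.41 ± 0.16 at G8.5, 0.43 ± 0.16 at G10.5, 0.08 at G12.5, 0.02 at G14.5, 0.07 at G16.5 and 0.23 at G18.5. Stat3 was thus highest in mid-gestation, with 80.9 and 83.6 CPM at G8.5 and 87.6 and 79.5 CPM at G10.5, both above the G0 libraries, as for 24.8% of genes at G8.5 and 23.8% at G10.5. Neither stage passed (adjusted p = 0.134 at G8.5 and 0.155 at G10.5, edgeR). Stat6 lay between -0.56 and -0.07 at all stages, and its lowest adjusted p was 0.386.

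Markers of other cells also differed between G14.5 and G0. The 6 δ-cell markers summed to 122.2, 217.3 and 218.4 CPM at G14.5, against 984 and 448 CPM at G0, and the 9 α-cell markers to 1095, 969.5 and 1574 CPM, against 1598 and 3164 CPM. The 9 immune markers summed to 84.3, 128.5 and 66.8 CPM at G14.5, against 31.6 and 60.2 CPM at G0. Without the cells rich in other hormones the log2 fold change of Stat5a was -0.98. The part of the remaining difference in these markers was not tested.

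The step from G0 to G14.5 was made in 10 sets of mice, each with its own G0 libraries, and both STAT5 genes had log2 fold changes below 0 in all of them. Stat5b encodes the STAT5 form best known for growth hormone signalling. Its G14.5 libraries lay wholly below the G0 libraries in 10 of 10 sets, with log2 fold changes of -0.89 to -0.11 and a median of -0.50. Of the 9630 genes tested in all sets, 31, or 0.322%, lay without overlap below G0 in all 10. For Stat5b 1 set passed the test.

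Stat5a had a fold change below 0 in 10 of 10 sets, from -1.13 to -0.16 with a median of -0.66, and its groups did not overlap in 7. Of all 9630 genes, 4.15% lay without overlap below G0 in at least 7 sets and 4.2% had a fold change below 0 in all 10. For Stat5a 1 set was called, the time course. Summing the 2 genes, which sidesteps the division of shared reads, gave G14.5 libraries wholly below G0 in 10 of 10 sets, at 0.520 to 0.810 times the G0 mean, with a median of 0.694. At G0 of the time course Stat5b gave 29.4 CPM of a summed mean of 40.6 CPM. The sum thus largely repeats the Stat5b result and adds no separate evidence. No share over all genes was computed for sums.

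Stat6 had a fold change below 0 in 9 of the 10 sets, from -0.84 to 0.11 with a median of -0.42, and was called in 0 (2 had an unadjusted p under 0.05). Stat3 had no common direction, with a fold change below 0 in 3 sets, a range of -0.22 to 0.42 and a median of 0.04, and was called in 0 (1 had an unadjusted p under 0.05).

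**Figure D4:**
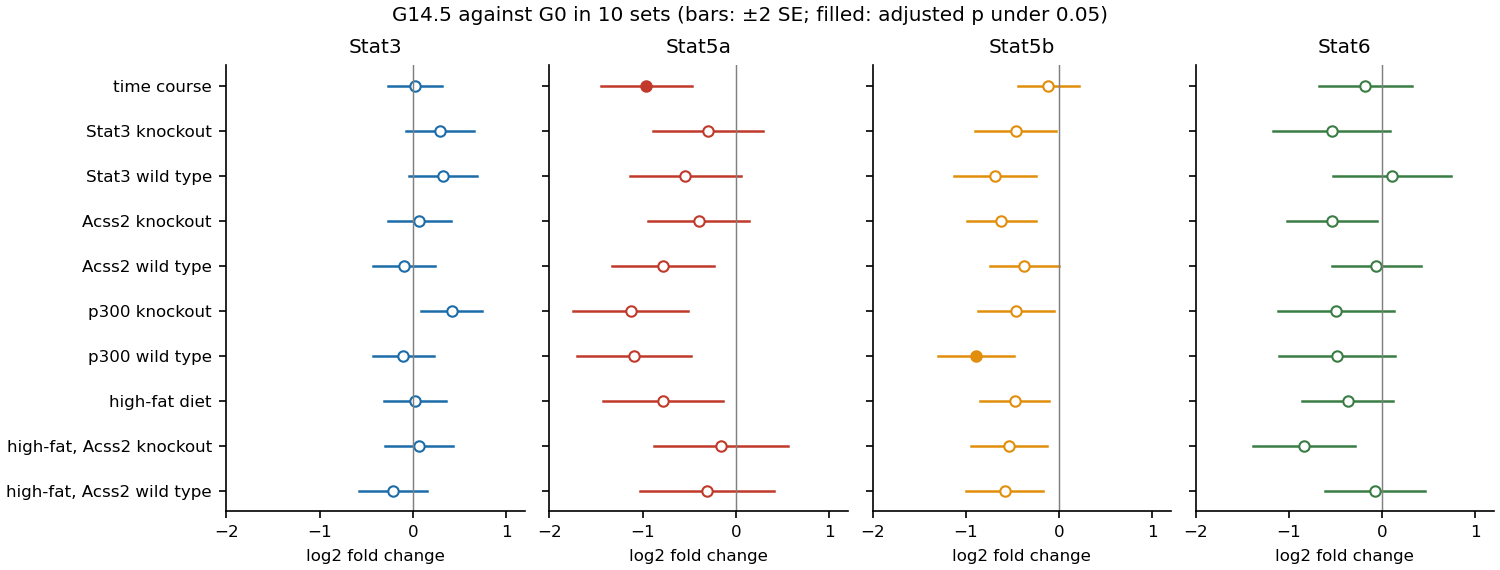
Log2 fold change of each gene at G14.5 against G0 in 10 sets of mice, each with its own G0 libraries. Bars are scaled to the SE, and the title of the plot gives their width. All 10 points of Stat5b and of Stat5a lie below 0, while those of Stat3 lie on both sides.

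The p300 wild types held the one called value of Stat5b at G14.5. Stat5b had 18.2 and 19.3 CPM in G14.5 libraries, against 31.5 and 37.9 CPM in G0 libraries. It fell by 0.89 ± 0.21 on the log2 scale (adjusted p = 0.0429, edgeR's quasi-likelihood test), where 2.15% of genes were called. The call was lost with each of the 4 libraries left out, at adjusted p of 0.0540 to 0.159. The p300 knockouts had 19.8 and 20.4 CPM at G14.5, against 26.3 and 29.03 CPM at G0 (-0.46 ± 0.20, adjusted p = 0.271), where 3.27% of genes were called. The markers of other islet cells were also lower at G14.5 in these wild types: the 2 PP-cell markers summed to 8.2 and 3.6 CPM, against 439 and 196 CPM at G0, and the part of this in the Stat5b value was not tested.

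In the other sets Stat5b was lower at G14.5 by amounts that did not pass. In the Stat3 set it had 31.2 and 31.4 CPM in knockouts at G14.5, against 49.6 and 36.7 CPM at G0, and 21.98 and 29.03 CPM in wild types at G14.5, against 36.3 and 45.7 CPM at G0, where 1.7% of genes were called in the knockouts and 1.74% in the wild types. In the Acss2 set it had 20.9 and 19.9 CPM in knockouts at G14.5, against 28.6 and 34.04 CPM at G0 (adjusted p = 0.0754, edgeR), where 4.35% of genes were called. Acss2 wild types had 21.3 and 28.2 CPM at G14.5, against 30.3 and 33.7 CPM at G0, where 2.92% were called. All of these pairs were apart. They and the high-fat pairs below belong to the 10 sets counted above, where 0.322% of genes lay apart below G0 in all 10. In a single set this is common: 15.5% of genes lay so in the time course. The shares for the other single sets are not given here. On high-fat diet it had 26.01, 24.8 and 24.8 CPM at G14.5 in unmodified mice, against 32.9 and 37.1 CPM at G0, 18.1 and 22.9 CPM in Acss2 knockouts, against 31.7 and 27.7 CPM, and 22.4 and 18.8 CPM in Acss2 wild types, against 28.4 and 33.3 CPM. The groups were apart in all 3, and the adjusted p by edgeR lay between 0.158 and 0.21, where 1.95% of genes were called in unmodified mice, 3.85% in Acss2 knockouts and 1.93% in Acss2 wild types.

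Late in gestation Stat5b was called in 1 set. In Acss2 wild types at G18.5 it had 20.1 and 20.7 CPM, against 30.3 and 33.7 CPM at G0. It fell by 0.65 ± 0.18 on the log2 scale (adjusted p = 0.0456, edgeR), where 6.89% of genes were called, and the call was lost with each of the 4 libraries left out, at adjusted p of 0.152 to 0.221. In Acss2 knockouts it had 24.6 and 23.5 CPM at G18.5, against 28.6 and 34.04 CPM at G0, a log2 fold change of -0.38 ± 0.18 (adjusted p = 0.451), where 2.47% of genes were called. In the time course Stat5b had 27.5, 27.4 and 30.1 CPM at G18.5, against 28.1 and 30.7 CPM at G0, and the groups overlapped. The PP-cell markers of the Acss2 wild types summed to 30.2 and 66.7 CPM at G18.5, against 541 and 1125 CPM at G0. Without the cells rich in other hormones the fold change of Stat5b was -0.66, and the part of the remaining markers was not tested.

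Stat3 knockout libraries kept Stat3 reads, and the gene counts do not separate the genotypes firmly. At G0 Stat3 had 66.1 and 49.4 CPM in knockouts, against 65.9 and 70.8 CPM in wild types, and these overlapped. At G14.5 it had 67.4 and 73.7 CPM in knockouts, against 80.3 and 90.2 CPM in wild types, and at G18.5 60.7 and 67.5 CPM in knockouts, against 78.3 and 86.5 CPM in wild types. The knockouts lay below the wild types without overlap at G14.5 and G18.5, where 19.3% and 19.1% of genes lay that way. The log2 fold change was -0.24 ± 0.18 at G0 (adjusted p = 0.739), -0.27 ± 0.18 at G14.5 (adjusted p = 0.711) and -0.36 ± 0.18 at G18.5 (adjusted p = 1), all by edgeR's test, with 0% of genes called at G0, 0.0098% at G14.5 and 0.0196% at G18.5. At G18.5 the interval of 2 SE ran from -0.73 to 0.00.

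Between 96.2% and 98.3% of knockout cells had a Stat3 read in each library. A count over the whole gene does not check the removal of an exon, since reads from the remaining exons still count. The libraries are therefore called by their labels.

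Other members did not pass between Stat3 genotypes. Stat6 had 30.7 and 14.6 CPM in knockouts at G0, against 12.7 and 12.98 CPM in wild types, a log2 fold change of 0.82 ± 0.32 (adjusted p = 0.538, edgeR) with replicate 1 of the knockout the far higher. Stat5b was at 0.07 ± 0.22 at G0, 0.30 ± 0.22 at G14.5 and -0.13 ± 0.22 at G18.5, and Stat5a at -0.23 ± 0.30, 0.01 ± 0.30 and -0.11 ± 0.29 for the same stages. The effect of G14.5 on Stat5b was -0.46 ± 0.22 in knockouts and -0.68 ± 0.22 in wild types, with a difference between genotypes of 0.22 ± 0.31 (adjusted p = 0.893, edgeR, 0% of genes called), and an interval of 2 SE from -0.39 to 0.84.

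Knockout of p300 or Acss2 changed none of the 4 genes by the test. Of all genes, 1.54% were called between p300 knockouts and wild types at G0 and 0% at G14.5, and between Acss2 knockouts and wild types 0.00711% at G0, 0.0213% at G14.5 and 0.149% at G18.5. In the p300 set Stat3 had 78.4 and 74.7 CPM in knockouts at G14.5, against 56.7 and 57.9 CPM in knockouts at G0, and 66.8 and 62.4 CPM in wild types at G14.5, against 66.2 and 72.5 CPM in wild types at G0. The log2 change over gestation was 0.42 ± 0.16 in knockouts (adjusted p = 0.208) and -0.10 ± 0.16 in wild types (adjusted p = 0.797), and the interaction of 0.52 ± 0.23 had a p of 0.0433 and an adjusted p of 0.463 by edgeR, where 0.0668% of genes were called. Stat5a was lower at G14.5 in both genotypes, with 4.95 and 4.88 CPM in knockouts, against 10.8 and 10.6 CPM at G0 (-1.13 ± 0.31, adjusted p = 0.0704), and 7.68 and 5.94 CPM in wild types, against 14.3 and 14.8 CPM at G0 (-1.09 ± 0.31, adjusted p = 0.0878). DESeq2 called both of these values, with adjusted p of 0.0178 in knockouts and 0.024 in wild types.

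In the Acss2 set the differences between knockouts and wild types of the same stage lay between -0.64 and 0.43 on the log2 scale. The lowest was Stat6 at G14.5, with 8.41 and 7.76 CPM in knockouts, against 15.1 and 9.97 CPM in wild types (-0.64 ± 0.24, adjusted p = 0.39, edgeR). On high-fat diet Stat6 at G14.5 had 8.43 and 11.9 CPM in Acss2 knockouts, against 13.9 and 16.05 CPM in wild types (-0.56 ± 0.27, adjusted p = 0.594), where 0.0638% of genes were called. The groups did not overlap on either diet, as for 20.7% of genes in this direction on standard diet and 21.8% on high-fat diet, and neither value passed.

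Diet itself moved no member past the threshold. In Acss2 wild types at G14.5, Stat5b had 22.4 and 18.8 CPM on high-fat diet, against 23.2 and 31.1 CPM on standard diet (-0.40 ± 0.20, adjusted p = 0.447, edgeR), where 0.213% of genes were called. Stat3 had 66.1 and 64.3 CPM on high-fat diet, against 76.4 and 77.8 CPM on standard diet (-0.24 ± 0.18, adjusted p = 0.616). After delivery on high-fat diet, Stat6 had 19.04 and 17.5 CPM at P7NL, against 13.9, 11.1 and 12.48 CPM at G14.5 (0.55 ± 0.24, adjusted p = 0.344), where 1.32% of genes were called.

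In cultured islets the summed Stat3 counts were lower with either inhibitor in both sera, without a call. With nifuroxazide in normal serum Stat3 had 104.1 and 94.6 CPM, against 134.8 and 154.5 CPM with vehicle (-0.54 ± 0.17, p = 0.00827, adjusted p = 0.149, edgeR), where 1.99% of genes were called. With cells weighted equally in limma this difference was -0.11 (adjusted p = 0.80). In maternal serum it had 103.5 and 130.3 CPM with nifuroxazide, against 137.004 and 157.2 CPM with vehicle (-0.33 ± 0.17, adjusted p = 0.586), where 0.697% of genes were called. The groups did not overlap in either serum, as for 23.8% of genes in this direction in normal serum and 21.1% in maternal serum.

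With A485 in normal serum Stat3 had 93.96 and 90.04 CPM, against 105.1 and 150.98 CPM with vehicle (-0.48 ± 0.17, adjusted p = 0.172, edgeR), where 2.57% of genes were called. In maternal serum it had 118.9 and 120.4 CPM with A485, against 129.6 and 152.8 CPM with vehicle (-0.24 ± 0.17, adjusted p = 0.512), where 3.3% of genes were called. These groups were also apart, as for 25.2% of genes in this direction in normal serum and 25.4% in maternal serum. In normal serum the direction for A485 turned with cells weighted equally in limma, to 0.14. Nifuroxazide is used as an inhibitor of STAT3, and A485 inhibits p300 and CBP. Their doses and culture sets also differ, so the inhibitors were not set against each other.

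Maternal serum alone was not followed by a call for Stat3. With vehicle the log2 difference between maternal and normal serum was 0.14 ± 0.17 in the A485 set, where 0.657% of genes were called, and 0.02 ± 0.17 in the nifuroxazide set, where 1.02% of genes were called. The intervals of 2 SE ran from -0.21 to 0.48 in the A485 set and from -0.32 to 0.37 in the nifuroxazide set.

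**Figure D5:**
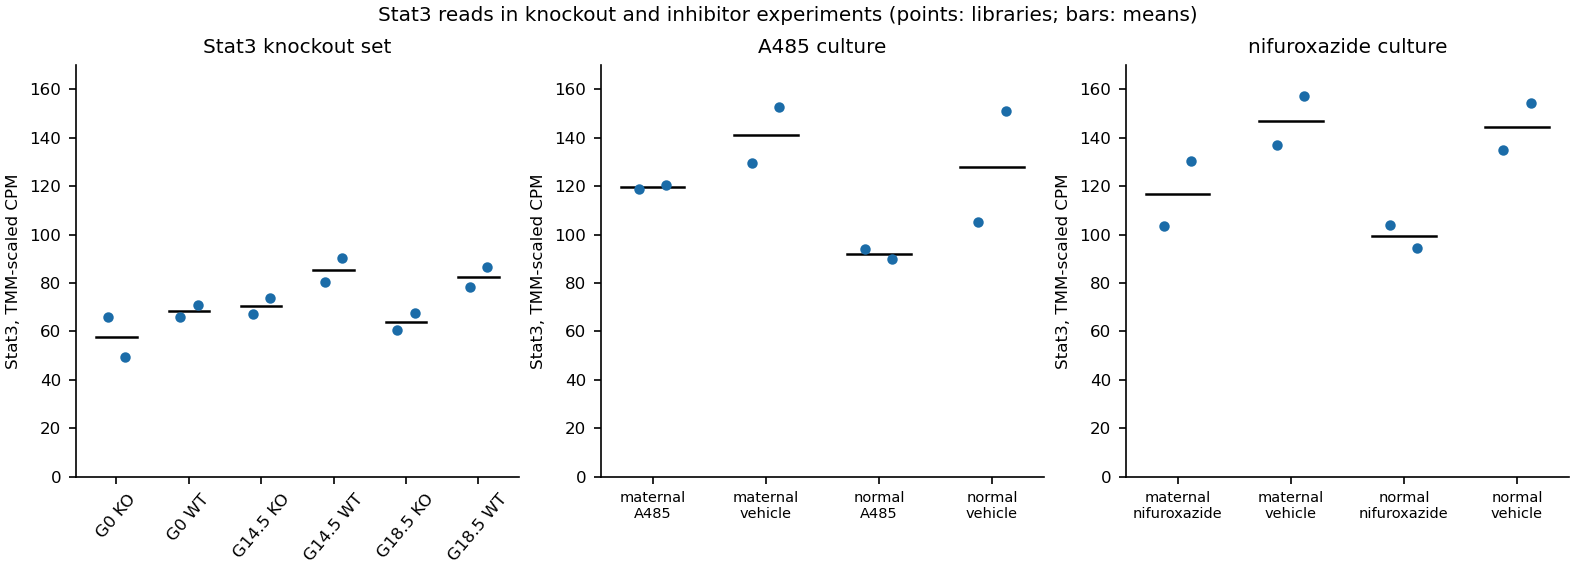
Stat3 CPM per library in the Stat3 knockout set and in the cultures, with knockout or inhibitor libraries left of their wild-type or vehicle libraries and group means. Stat3 reads remained in the libraries labelled Stat3 knockout, at 49.4 to 73.7 CPM, and libraries with either inhibitor lay below those with vehicle in both sera, though with cells weighted equally A485 in normal serum turned to a log2 difference of 0.14.

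The other members varied between the culture sets. Stat5b had 26.9 and 27.8 CPM with A485 in normal serum, against 19.1 and 20.0 CPM with vehicle (0.48 ± 0.21, adjusted p = 0.268, edgeR), and 24.2 and 31.8 CPM in maternal serum, against 21.6 and 22.8 CPM with vehicle. With cells weighted equally in limma, the difference in normal serum was 0.86 and passed (adjusted p = 0.0193). With nifuroxazide in normal serum it had 16.4 and 23.6 CPM, against 28.4 and 35.5 CPM with vehicle (-0.67 ± 0.26, adjusted p = 0.226, and -0.35 in limma), and in maternal serum the groups overlapped at 30.6 and 36.03 CPM, against 29.9 and 30.7 CPM. The interaction of serum and nifuroxazide for Stat5b was 0.81 ± 0.36 (p = 0.0428, adjusted p = 0.732, edgeR), where 0% of genes were called. Stat6 had 26.4 and 28.6 CPM with A485 in maternal serum, against 20.9 and 12.4 CPM with vehicle (0.72 ± 0.30, adjusted p = 0.24). This Stat6 value passed with cells weighted equally in limma, at 1.25 (adjusted p = 0.0172). Stat5a had 11.7 and 10.9 CPM with nifuroxazide in maternal serum, against 12.8 and 31.9 CPM with vehicle, and was not called. Its log2 fold change of -0.98 ranged from -1.49 to -0.18 with each library left out, so it leaned on single libraries.

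Of 53 JAK-STAT genes, 50 were tested in the time course, and at G14.5 against G0 7 rose and 1 fell, where 5.96% of all genes rose and 4.15% fell. The list was chosen with earlier results of these data known. Its counts beside the shares of all genes, here and in the paragraphs below, are therefore descriptions and no test of enrichment. The median log2 fold change was 0.01 over the list and 0.01 over all genes. Among 16 tested receptors 2 rose, among 16 inhibitors 2 rose, and among 11 targets 3 rose and 1 fell. Prlr, the prolactin receptor, had 1187, 1007 and 1233 CPM at G14.5, against 243 and 343 CPM at G0. Cish, a feedback inhibitor induced by STAT5, had 131.8, 233 and 129.2 CPM at G14.5, against 8.16 and 9.12 CPM at G0, and rose by 4.26 ± 0.71 on the log2 scale (adjusted p = 0.000135, edgeR). Tph2, a serotonin-synthesis enzyme, rose by 4.89 ± 0.63 (adjusted p = 3.48e-06) and the kinase gene Pim3 fell by 0.81 ± 0.22 (adjusted p = 0.0139). In the same libraries Stat5a fell and Stat5b, with 26.6, 26.8 and 27.9 CPM at G14.5 against 28.1 and 30.7 CPM at G0, was not called.

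None of the 4 Janus kinases was called at G14.5, while 2 of them had an unadjusted p under 0.05 in edgeR's test, as 23.5% of all genes did. Jak1 had 105.6, 100.7 and 106.03 CPM at G14.5, against 98.7 and 77.3 CPM at G0, and Jak2, the kinase of the prolactin receptor, had 18.3, 19.2 and 24.997 CPM at G14.5, against 16.6 and 11.4 CPM at G0. The groups did not overlap for either gene, as for 17.3% of genes in this direction.

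On day 7 after delivery, where Stat3 rose, 4 of the 50 JAK-STAT genes rose in P7L against P7NL and 0 fell, where 0.696% of all genes rose. As the list was chosen with earlier results known, this count is a description only. The median log2 fold change was 0.16 over the list and 0 over all genes. Prlr had 939 and 973 CPM in P7L, against 337 and 477 CPM in P7NL, and rose by 1.23 ± 0.19 (adjusted p = 0.000251, edgeR). Tph1, a serotonin-synthesis enzyme, had 17.5 and 18.6 CPM in P7L, against 0.256 and 3.20 CPM in P7NL, and Tph2 had 16.6 and 12.2 CPM, against 1.13 and 3.33 CPM. Socs3, the feedback inhibitor of STAT3 signalling, had 36.9 and 25.9 CPM in P7L, against 18.4 and 14.8 CPM in P7NL, and was not called. Il6st, which encodes the shared receptor chain gp130, had 30.3 and 36.3 CPM in P7L, against 29.9 and 29.6 CPM in P7NL. Jak1 had 111.8 and 108.02 CPM in P7L, against 116.7 and 107.02 CPM in P7NL.

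Between Stat3 knockouts and wild types 0 of 39 tested JAK-STAT genes were called by edgeR at each stage, while 6 at G0, 5 at G14.5 and 1 at G18.5 had an unadjusted p under 0.05. Of all tested genes, 8.13% did at G0, 8.57% at G14.5 and 4.97% at G18.5. Myc, a growth regulator and STAT3 target, had 16.6 and 9.81 CPM in knockouts at G14.5, against 26.7 and 26.01 CPM in wild types, and 4.77 and 7.08 CPM in knockouts at G18.5, against 29.001 and 20.5 CPM in wild types. These groups did not overlap, as for 19.3% of genes in this direction at G14.5 and 19.1% at G18.5. Between p300 knockouts and wild types at G0, 4 of 48 tested JAK-STAT genes fell and 0 rose, where 1.06% of all genes fell. Myc was among them, with 0.277 and 0.461 CPM in knockouts, against 6.63 and 8.73 CPM in wild types (-4.38 ± 0.42, adjusted p = 0.000362, edgeR). In the paragraphs on pathway genes, those named beyond the 3 highest and 3 lowest called genes of a comparison, Myc among them, were chosen after their values were seen.

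In the cultures a few JAK-STAT genes rose with maternal serum, and most did not pass. With the vehicle of the A485 set 4 of 48 JAK-STAT genes rose in maternal against normal serum, where 0.516% of all genes rose, among them Cish by 3.92 ± 0.28 and Socs2 by 2.57 ± 0.21 (adjusted p = 6.61e-05 and 0.000156, edgeR), and with the vehicle of the nifuroxazide set 6 of 48 rose, where 0.593% of all genes rose, among them Cish by 4.28 ± 0.26. None of the 48 fell in either. Nifuroxazide in maternal serum lowered 1 gene of the list, Prlr, which had 581 and 528 CPM, against 954 and 997 CPM with vehicle (-0.82 ± 0.14, adjusted p = 0.0114). In normal serum nifuroxazide lowered Cish (-1.55 ± 0.27), Lifr (-0.93 ± 0.18) and Prlr (-0.73 ± 0.14) and raised Myc (2.79 ± 0.45). With an inhibitor present, Cish was also higher in maternal than in normal serum, by 5.41 ± 0.29 with nifuroxazide and 4.01 ± 0.27 with A485. Tph2 was higher by 6.28 ± 0.84 with nifuroxazide and 6.96 ± 0.98 with A485. All of these were called by edgeR. A485 in maternal serum lowered Il6st (-1.88 ± 0.37), Prlr (-0.94 ± 0.15) and the phosphatase gene Ptpn11 (-0.72 ± 0.17) and raised Junb (0.94 ± 0.16) and Fos (0.84 ± 0.13). In normal serum A485 lowered Tph2 (-5.81 ± 0.98) and raised Junb (1.08 ± 0.16) and Fos (1.08 ± 0.13).

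Genes whose group means followed those of a member most closely were ranked by Pearson's r over the 16 time-course groups among the 7197 or 7198 other genes of at least 10 CPM. For Stat3 these were Wnt4 (r = 0.87), Sptbn1 (0.84) and Utrn (0.80). For Stat5a they were Map7d1 (0.80), Gse1 (0.78) and Kdm2b (0.78), for Stat5b Kif1b (0.82), Ing2 (0.81) and D3Ertd751e (0.79), and for Stat6 Ypel3, Zc3h7b and Ralgps1 (0.81 each). The groups share libraries with the members and the ranking picks the highest of many values, so these are descriptions only.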

How the data were processed

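RNA of single sorted β cells was measured by Smart-seq3xpress. Reads were trimmed with Trimmomatic 0.39 and counted per gene with featureCounts 2.0.1 on GRCm38/mm10, per the submitters' processing notes. No source used here names the aligner, the annotation, the strand setting or any removal of duplicates. The deposited count tables hold whole reads per gene and cell. The authors also deposited a normalized score per gene and cell scaled to a common total, which was used only as an alternative for the order of levels. The droplet samples were not analysed here.

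Cells were summed into libraries by group and replicate number. Each table was fitted on its own with edgeR 4.0.16 (quasi-likelihood, TMM scaling, filterByExpr, R 4.3.3) on the counts, over all its groups, with Benjamini-Hochberg adjustment over all tested genes and a threshold of 0.05. The SE is the log2 fold change divided by the root of F. CPM are TMM-scaled, and RPKM divide them by the gene length in the tables. A comparison was made for 63 contrasts, 2 of them added after the data were seen (the lactation difference between days). Steps were tested on simulated counts. No cells had identical counts (0 of 7897).

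The members, the pathway list and the marker lists were chosen with earlier results of these data known. Lepr stands in both the receptor and the δ-cell list. In a comparison, at most the 3 highest and 3 lowest called pathway genes were to be named. Alternatives were DESeq2 1.42.0, its size factors in edgeR, no filter on low counts, leaving out Ins1 and Ins2 or the cells rich in other hormones, cells weighted equally with limma 3.58.1 on log2(mean CPM + 1), a replicate block and leaving out each library. Replicates differed by more than counting error, so the spread between libraries limits the precision. Between 241 and 2797 reads of Stat5a and between 1698 and 21050 reads of Stat3 stood behind each time-course value.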

Additional observations from a re-analysis of the deposited data

How the results depend on the processing

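Of the counts of called members and the levels, 92 of those under other settings lay near the reported one, 10 did not, and the 10 are given here. Called member comparisons mostly numbered 0 or 1, and 0 against 0 is taken as near. The 92 therefore say little about how firm the calls are. The members called over the time course were 2, against 3 with DESeq2, where Stat5b also passed, and 1 with cells weighted equally in limma. Called member comparisons in the Acss2 set were 1, against 2 with DESeq2 and 0 with limma. In the p300 set they were 1, against 3 with DESeq2, 0 with limma and 0 with the replicate block. On high-fat diet they were 0, against 1 with DESeq2, and in the A485 cultures 0, against 2 with limma. With each library left out, the counts ranged from 0 to 1 for gestation stages, for L against NL, for the Acss2 set and for the p300 set, and from 1 to 3 for the time course (3 without G10.5 replicate 2). The cause of these shifts was not tested. With cells thinned to 100000 reads, Stat3 was found in 94.6% and Stat5b in 71.9% of cells. In limma, the difference of Stat3 with nifuroxazide in normal serum shrank to -0.11. The sign turned for Stat3 with A485 in normal serum in limma (0.14), and for Stat5a at G14.5 on high-fat diet without G0 replicate 1: with each library left out it ranged from -0.37 to 0.089 in Acss2 knockouts and from -0.70 to 0.25 in Acss2 wild types. Under limma, Stat5b in Acss2 wild types at G18.5 had -0.83 (adjusted p = 0.0632) and Stat5b in p300 wild types at G14.5 had -0.60 (adjusted p = 0.151). By the median, same-numbered replicates did not deviate together: the median correlation over pairs of groups was between -0.0148 and 0.0517 by table. Single pairs ran from -0.21 in the time course to 0.27 in the Acss2 set. In the nifuroxazide set all pairs lay above 0, from 0.0052 to 0.10. With the replicate block Stat5b in p300 wild types had -0.88 (adjusted p = 0.0513), and no other call of a member changed. With 2 or 3 libraries a group, the smallest called change of a member was 0.65 on the log2 scale. Over the comparisons, the median log2 fold of all genes ran from -0.026 to 0.029.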

Other observations

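Between p300 knockouts and wild types at G0, the called genes of the JAK-STAT list included Cish and Tph1 beside Myc. Cish, the feedback inhibitor induced by STAT5, had 18.49 and 13.7 CPM in p300 knockouts, against 120.8 and 58.4 CPM in their wild types, and fell by 2.47 ± 0.30 on the log2 scale (adjusted p = 0.00193, edgeR's quasi-likelihood test). Tph1, a serotonin-synthesis enzyme, was at 0 in both knockout libraries, against 0.559 and 0.705 CPM in wild types (adjusted p = 0.000362, edgeR). The wild-type levels were also near the floor, so the Tph1 call rests on few reads. At G0 in the Stat3 set, Cish had 44.4 and 4.29 CPM in knockouts, against 69.7 and 170.2 CPM in wild types, and was not called. It had 8.16 and 9.12 CPM at G0 in the time course. The G0 values of Cish in the Acss2 and high-fat sets are not given here, and single libraries differed widely. These sets were scaled separately and not tested against each other.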
